A study of Helianthus annuus with 12 samples.

Results

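Gene70395 and gene49859 are 2 sunflower genes whose best protein match in the authors' annotation is a putative glucose/ribitol dehydrogenase. They were chosen because their values were much higher in seeds of the cultivar L-1-OL-1 than in seeds of the cultivar 86-1, gene70395 at 17 days after flowering (DAF) and gene49859 at 27 DAF. They are 2 of the 81 genes with this annotation that have expression values, and 2 of 48882 genes in all. RNA was sequenced from samples labelled seed of Helianthus annuus in 4 groups of 3 libraries: L-1-OL-1 seeds of 27 DAF, L-1-OL-1 seeds of 17 DAF, 86-1 seeds of 27 DAF and 86-1 seeds of 17 DAF. The study set cultivars of high and low oleic acid content against each other at a stage of fast oleic acid accumulation, 17 DAF, and a stage of steady content, 27 DAF; which of them is the high one is not stated in the labels. No transgene, mutation or treatment is given for either cultivar, and the labels leave unsaid whether the 3 libraries of a group are separate plants, so each p-value reflects the spread among these libraries, which may be technical.

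Glucose/ribitol dehydrogenase is the name of a sequence signature of the short-chain dehydrogenase/reductase family, enzymes that move hydride between a nicotinamide cofactor and alcohol, sugar, steroid or carbonyl substrates. The signature does not give the substrate of a plant protein, and many proteins that carry it have no assigned reaction. In barley and in Arabidopsis, proteins with this signature are known from maturing and dry seeds. No sequence of either gene is printed here. The best match of gene70395 was identical over 265 of 265 aligned residues and that of gene49859 over 324 of 324, and no other gene of the annotation table had either protein as its best match. Of the 81 genes, 62 were the sole gene with their best match and 19 shared it with another gene. Reads of the 19 may be harder to divide where the genes are alike, but how reads were divided was not examined.

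The deposited values are FPKM, which are scaled for gene length and for the fragments mapped per library. FPKM totals were 605655 to 683903 per library, and the steps between low values put relative depths at 0.796 to 1.22; read numbers are unknown. On the log2(FPKM + 1) scale, replicate 1 of L-1-OL-1 at 17 DAF stood apart, with a Pearson correlation of 0.861 and 0.784 with replicates 2 and 3 of its group and of 0.833 to 0.860 with the 86-1 libraries of that stage, whereas the other pairs within groups gave 0.931 to 0.974. Replicate 3 of 86-1 at 17 DAF stood apart in genes otherwise near 0 in its cultivar. Of 246 genes with at least 10 FPKM in every L-1-OL-1 library and under 0.1 FPKM in every 86-1 library at 27 DAF, it had 226 at 0.1 FPKM or more, against 9 in replicate 2 and 7 in replicate 1. Conversely, 111 genes chosen the same way for 86-1 had a median of 30.6%, 27.4% and 4.68% of their 86-1 level at 27 DAF in L-1-OL-1 replicates 1, 2 and 3 of 17 DAF. Of the 111, 69, 69 and 67 were at 0.1 FPKM or more in these libraries. By neither measure did replicate 1 stand apart from replicate 2, so replicate 1 is doubted for its correlations. By the median it was replicate 3 of L-1-OL-1, at 4.68%, that stood apart from replicates 1 and 2. Replicate 3 is not counted as doubted here, so values without the doubted libraries lean on it. The doubted libraries are replicate 1 of L-1-OL-1 and replicate 3 of 86-1 at 17 DAF. Values without them are given where they bear on a result. Where the transcripts otherwise seen in the other cultivar came from was not tested.

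Gene70395 was at 322 FPKM or more in 3 libraries, replicates 2 and 3 of L-1-OL-1 at 17 DAF and replicate 3 of 86-1 at 27 DAF, and at 34.9 FPKM or less in the other 9. At 27 DAF it had 34.9, 5.95 and 1.61 FPKM in the L-1-OL-1 libraries 1, 2 and 3, against 17.2, 2.24 and 322 FPKM in the 86-1 libraries. At 17 DAF it had 10.2, 620 and 799 FPKM in L-1-OL-1, against 2.52, 0.340 and 0.284 FPKM in 86-1. The groups of the 2 cultivars overlapped at 27 DAF and did not at 17 DAF, where the lowest L-1-OL-1 library, the one that stood apart, was still above the highest 86-1 library. Of the tested genes, 64.0% and 31.6% had no overlap between the cultivars at 27 and 17 DAF, and nothing is read from the count here because these contrasts chose the gene.

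**Figure D1:**
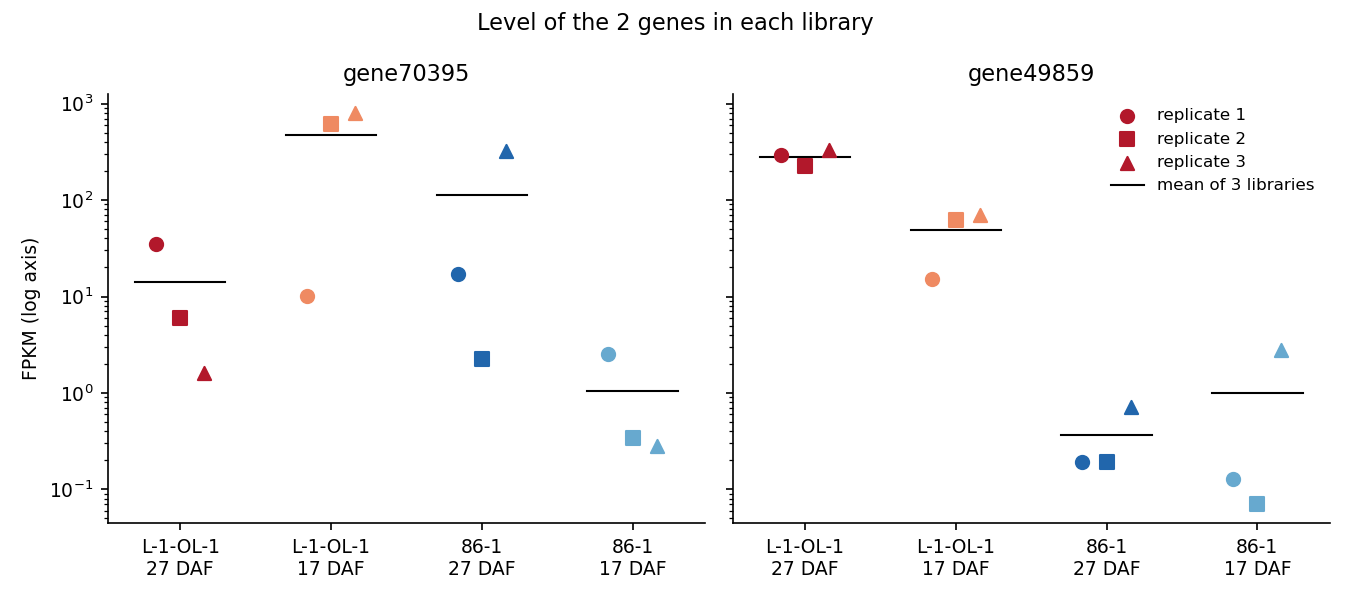
FPKM on a log axis of gene70395 (left) and gene49859 (right) in the 3 libraries of each group; the marker shape gives the replicate number and the bar the mean of 3 libraries. Gene70395 spans 10.2 to 799 FPKM within L-1-OL-1 at 17 DAF and 2.24 to 322 within 86-1 at 27 DAF, whereas the 6 L-1-OL-1 libraries of gene49859 all lie above the 6 of 86-1. Gene49859 was chosen for this difference at 27 DAF.

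The means of gene70395 were 14.1 ± 18.1 FPKM in L-1-OL-1 at 27 DAF, 477 ± 414 in L-1-OL-1 at 17 DAF, 114 ± 180 in 86-1 at 27 DAF and 1.05 ± 1.27 in 86-1 at 17 DAF (SD, n = 3 each). Their order, highest first, was L-1-OL-1 seeds of 17 DAF, 86-1 seeds of 27 DAF, L-1-OL-1 seeds of 27 DAF and 86-1 seeds of 17 DAF, and the libraries of every neighbouring pair in this order overlapped. Within a group the highest library exceeded the lowest 21.7-fold, 78.1-fold, 143-fold and 8.86-fold in L-1-OL-1 seeds of 27 DAF, L-1-OL-1 seeds of 17 DAF, 86-1 seeds of 27 DAF and 86-1 seeds of 17 DAF. The mean ranked 93rd of all genes in L-1-OL-1 at 17 DAF, 502nd in 86-1 at 27 DAF, 6781st in L-1-OL-1 at 27 DAF and 25536th in 86-1 at 17 DAF.

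As a description, the log2 difference L-1-OL-1 minus 86-1 of gene70395 on the log2(FPKM + 1) scale was 6.60 ± 1.75 at 17 DAF and -1.62 ± 1.75 at 27 DAF (standard error from the fit across all genes). The value at 17 DAF was 8.34 without both doubted libraries and 5.52 without replicate 3 of L-1-OL-1 at 17 DAF. The value at 27 DAF turned to 0.17 without replicate 3 of 86-1, was -3.14 without replicate 2 of 86-1, -2.65 without replicate 1 of L-1-OL-1 and -0.76 without replicate 3 of L-1-OL-1, so its direction rests on single libraries. The stage difference, 27 minus 17 DAF, was -4.36 ± 1.75 in L-1-OL-1 and 3.87 ± 1.75 in 86-1. The stage difference in 86-1 was not used to choose the gene, although it shares libraries with the contrasts that were, and it did not pass limma's test with Benjamini-Hochberg adjustment over the 30020 tested genes (adjusted p = 0.155; 18.8% of tested genes were called in this comparison). It was 2.07 without replicate 3 of 86-1 at 27 DAF (adjusted p = 0.453), and its adjusted p was between 0.053 and 0.453 over the 12 fits without 1 library.

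Many transcripts of green tissue, though not the most abundant one, varied over the libraries as gene70395 did. By Pearson correlation of log2(FPKM + 1) over the 12 libraries, a description of points that share libraries and groups, the named genes most like it were gene56687, an ABC transporter of the G subfamily (r = 0.975), gene6363, a cytochrome P450 (0.961), gene18131, an organ specific protein (0.953), gene32857, a photosystem II polypeptide of the oxygen-evolving machinery (0.940), gene52453, a phosphoinositide phospholipase C that cleaves membrane inositol lipids (0.934), and gene14516, a berberine-bridge-like FAD oxidoreductase (0.931). Such likeness was rare for this gene: 7 of 30019 other tested genes reached r of 0.95. The photosystem II gene had 17.1, 1.81 and 0.692 FPKM in L-1-OL-1 and 8.08, 2.84 and 19.9 FPKM in 86-1 at 27 DAF. At 17 DAF it had 3.64, 97.9 and 97.8 FPKM in L-1-OL-1 and 1.54, 3.46 and 1.35 FPKM in 86-1. The L-1-OL-1 replicates 2 and 3 of 17 DAF were high for both genes, and in both groups of 27 DAF the library that was highest for the one was highest for the other.

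The 66 genes annotated as photosystem, chlorophyll a/b-binding or Rubisco small-subunit proteins summed to 0.0677%, 0.0349% and 0.0339% of FPKM in L-1-OL-1 replicates 1, 2 and 3 and to 0.0328%, 0.0245% and 0.0548% in 86-1 at 27 DAF. At 17 DAF they summed to 0.0158%, 0.105% and 0.107% in L-1-OL-1 and to 0.0145%, 0.0240% and 0.0246% in 86-1. Of the 42 tested, 39 were higher in L-1-OL-1 replicates 2 and 3 of 17 DAF than in replicate 1, and 35 were highest in replicate 3 among the 86-1 libraries of 27 DAF. The share of all tested genes with these library orders was not counted, and replicate 1 stood apart over all genes. Nothing about green tissue is therefore read from the 39 and the 35. Of 68 genes with these annotations only the 66 had expression values, and 0 of the 66 were at 0 in every library. Over the 12 libraries the 42 had r of -0.416 to 0.940 with gene70395, with a median of 0.779, and 31 of them (73.8%) were above 0.5, against 12.4% of all other tested genes.

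The likeness had exceptions. The most abundant of the 42, gene10017, a chlorophyll a/b-binding protein of the light-harvesting antenna, had an r of 0.179 with gene70395. It had 138, 81.6 and 91.6 FPKM in L-1-OL-1 and 34.4, 34.5 and 64.4 FPKM in 86-1 at 27 DAF. Its values at 17 DAF were 23.3, 26.6 and 57.2 FPKM in L-1-OL-1 and 21.1, 31.5 and 31.5 FPKM in 86-1, so that in L-1-OL-1 it was higher in every library of 27 DAF than in any of 17 DAF, unlike gene70395. Within 86-1 at 17 DAF the summed share of the 66 was lowest in replicate 1, where gene70395 was highest of the 3. The part of green tissue in the values of gene70395 was not tested, and in bulk seed RNA a difference in the number of cells of a type cannot be told apart from a difference in RNA per cell. Markers of embryo storage tissue (oleosins, 11S and 2S storage proteins) took 3.23% to 4.92% of FPKM in L-1-OL-1 at 27 DAF, 3.35% to 28.9% in L-1-OL-1 seeds of 17 DAF, 16.1% to 37.6% in 86-1 seeds of 27 DAF and 10.1% to 31.4% in 86-1 at 17 DAF. Hull and secondary wall markers took 0.0864% to 0.282% over the 12 libraries. Within L-1-OL-1 at 17 DAF their share was lowest in replicate 1 (0.0967%, 0.182% and 0.207%), as was gene70395. Within 86-1 at 27 DAF it was highest in replicate 3 (0.0908%, 0.116% and 0.131%), again like gene70395. Unlike gene70395, it was lowest in replicate 1 within 86-1 at 17 DAF (0.146%, 0.227% and 0.282%). The same held within L-1-OL-1 at 27 DAF (0.0864%, 0.104% and 0.0884%). Whether the likeness is particular to green tissue was not tested.

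**Figure D2:**
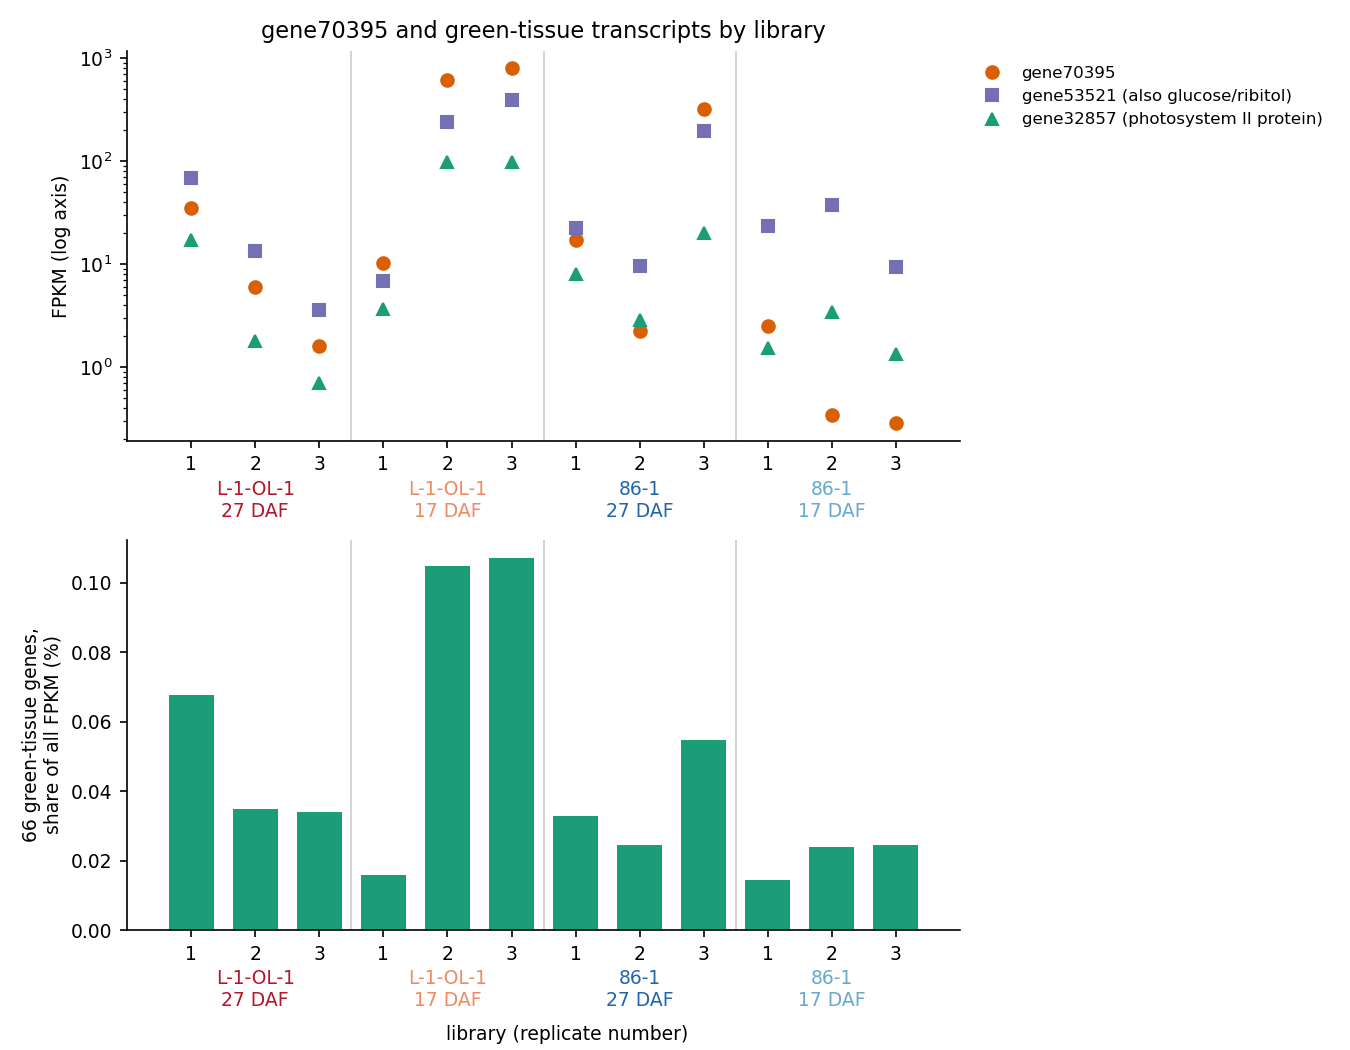
Upper panel: FPKM on a log axis of gene70395, gene53521 and the photosystem II gene gene32857 in each library. Lower panel: share of all FPKM in 66 green-tissue genes, from 0.0145% in replicate 1 of 86-1 at 17 DAF to 0.107% in replicate 3 of L-1-OL-1 at 17 DAF.

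Among the genes of the same annotation, gene53521 was the one most like gene70395 (r = 0.870). It had 68.3, 13.4 and 3.59 FPKM in L-1-OL-1 and 22.6, 9.65 and 197 FPKM in 86-1 at 27 DAF. At 17 DAF it had 6.93, 240 and 396 FPKM in L-1-OL-1 and 23.6, 37.2 and 9.42 FPKM in 86-1. The 3 libraries high for gene70395 were the 3 highest for gene53521, but the 86-1 libraries of 17 DAF held gene53521 at 9.42 FPKM or more, where gene70395 was at or under 2.52. None of the 4 comparisons of gene53521 passed limma's test (adjusted p 0.192 to 0.789), and its log2 differences were 2.09 ± 1.46 between the cultivars at 17 DAF and -2.46 ± 1.46 between the stages in L-1-OL-1. These values rest on single libraries: without replicate 3 of L-1-OL-1 at 17 DAF they were 1.03 (adjusted p = 0.716) and -1.40 (adjusted p = 0.488), and without replicate 1 of that group 3.85 (adjusted p = 0.0199) and -4.22 (adjusted p = 0.0130). Without both doubted libraries the difference between the cultivars was 3.34 (adjusted p = 0.0675).

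Gene49859 was present in every L-1-OL-1 library and near the bottom of the scale in every 86-1 library. At 27 DAF it had 292, 223 and 333 FPKM in L-1-OL-1, against 0.190, 0.193 and 0.720 FPKM in 86-1. At 17 DAF it had 15.2, 61.8 and 69.7 FPKM in L-1-OL-1, against 0.128, 0.0711 and 2.77 FPKM in 86-1. The cultivars did not overlap at either stage. Of the tested genes, 64.0% had no overlap between the cultivars at 27 DAF and 31.6% at 17 DAF. Nothing is read from this, because the gene was chosen on its cultivar difference. In L-1-OL-1 the 3 libraries of 27 DAF were all above those of 17 DAF, a lack of overlap that 53.3% of tested genes had between these groups. The lowest library of L-1-OL-1, replicate 1 at 17 DAF, and the highest of 86-1, replicate 3 at 17 DAF, were the 2 doubted libraries.

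The means of gene49859 were 283 ± 55.4 FPKM in L-1-OL-1 at 27 DAF, 48.9 ± 29.4 in L-1-OL-1 at 17 DAF, 0.368 ± 0.305 in 86-1 at 27 DAF and 0.991 ± 1.54 in 86-1 at 17 DAF (SD, n = 3 each). The 2 groups of 86-1 overlapped and have no order beyond their spread. The mean ranked 265th of all genes in L-1-OL-1 at 27 DAF, 1945th in L-1-OL-1 at 17 DAF, 29264th in 86-1 at 27 DAF and 25865th in 86-1 at 17 DAF. The log2 difference L-1-OL-1 minus 86-1, again a description, was 7.70 ± 0.57 at 27 DAF and 4.65 ± 0.57 at 17 DAF. For gene49859 the value at 17 DAF was 5.92 without both doubted libraries and 4.27 without replicate 3 of L-1-OL-1 at 17 DAF. With a pseudocount of 0.1 in place of 1, which compresses low values less, the values were 9.40 and 6.39. The stage difference in L-1-OL-1 was 2.75 ± 0.57. In 86-1, where the gene is low at both stages, the tested stage difference was -0.30 ± 0.57 and did not pass (limma, adjusted p = 0.793). It was 0.29 without replicate 3 of 86-1 at 17 DAF (adjusted p = 0.861). Nothing is read from this test, because the 86-1 libraries of 27 DAF in it were also used to choose the gene.

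In relation to its mean in L-1-OL-1 at 27 DAF, gene49859 stood at 5.38%, 21.9% and 24.7% in L-1-OL-1 seeds of 17 DAF, at 0.0673%, 0.0684% and 0.255% in the 86-1 libraries of 27 DAF and at 0.0453%, 0.0252% and 0.981% in those of 86-1 at 17 DAF. The 246 genes found at 27 DAF in L-1-OL-1 libraries and not in 86-1 libraries, a set chosen on the same contrast, had medians of 25.6%, 35.9% and 51.3% in L-1-OL-1 seeds of 17 DAF, and 0%, 0% and 3.22% in 86-1 at 17 DAF. In L-1-OL-1 at 17 DAF gene49859 had the same order of libraries as that set, at lower percentages, and in 86-1 at 17 DAF replicate 3 was highest for both. The order differed in L-1-OL-1 seeds of 27 DAF, with gene49859 at 103%, 79.0% and 118% and the set at medians of 99.5%, 101% and 98.6%.

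Many genes shared the pattern of gene49859: 1144 of 30019 other tested genes had r of at least 0.95 with it, against 7 with gene70395. The named genes most like it were gene58536, a receptor-like kinase (r = 0.996), and 5 more at 0.995 or 0.996, among them newly modelled genes matching a TCP7-like transcription factor (Helianthus_annuus_newGene_15149) and an ARID DNA-binding protein (Helianthus_annuus_newGene_33504), and gene40644, a tubulin-folding cofactor A. Each of the 6 lay between 15.2 and 26.9 FPKM in L-1-OL-1 seeds of 27 DAF. The receptor-like kinase had 17.0, 18.8 and 17.6 FPKM in L-1-OL-1 at 27 DAF and 2.90, 6.11 and 8.86 FPKM in L-1-OL-1 at 17 DAF, and was listed at 0 in the 3 libraries of 86-1 at 27 DAF. On the FPKM scale, which corrects for gene length, gene49859 was above all 6 in each library of L-1-OL-1 at 27 DAF.

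The delta-12 oleate desaturase gene64287, which encodes the enzyme that turns oleic into linoleic acid, ran opposite to gene49859; it was singled out after its values were seen. It had 0.0902, 0.0735 and 0 FPKM in L-1-OL-1, against 568, 554 and 176 FPKM in 86-1 at 27 DAF. At 17 DAF it had 49.3, 18.0 and 2.55 FPKM in L-1-OL-1, against 905, 698 and 481 FPKM in 86-1. Over the 12 libraries its r was -0.979 with gene49859, where 1 of 30019 genes was lower, and -0.320 with gene70395. Nothing is read from this rank, since gene49859 was chosen for its cultivar difference and the desaturase was picked with its values known. Within L-1-OL-1 at 17 DAF the libraries ran in opposite order for the 2 genes, the desaturase highest and gene49859 lowest in replicate 1, a doubted library. The order is not particular to this pair: the medians of the 111 genes of 86-1 were 30.6%, 27.4% and 4.68% in these libraries. Those of the 246 genes of L-1-OL-1 were 25.6%, 35.9% and 51.3%.

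**Figure D3:**
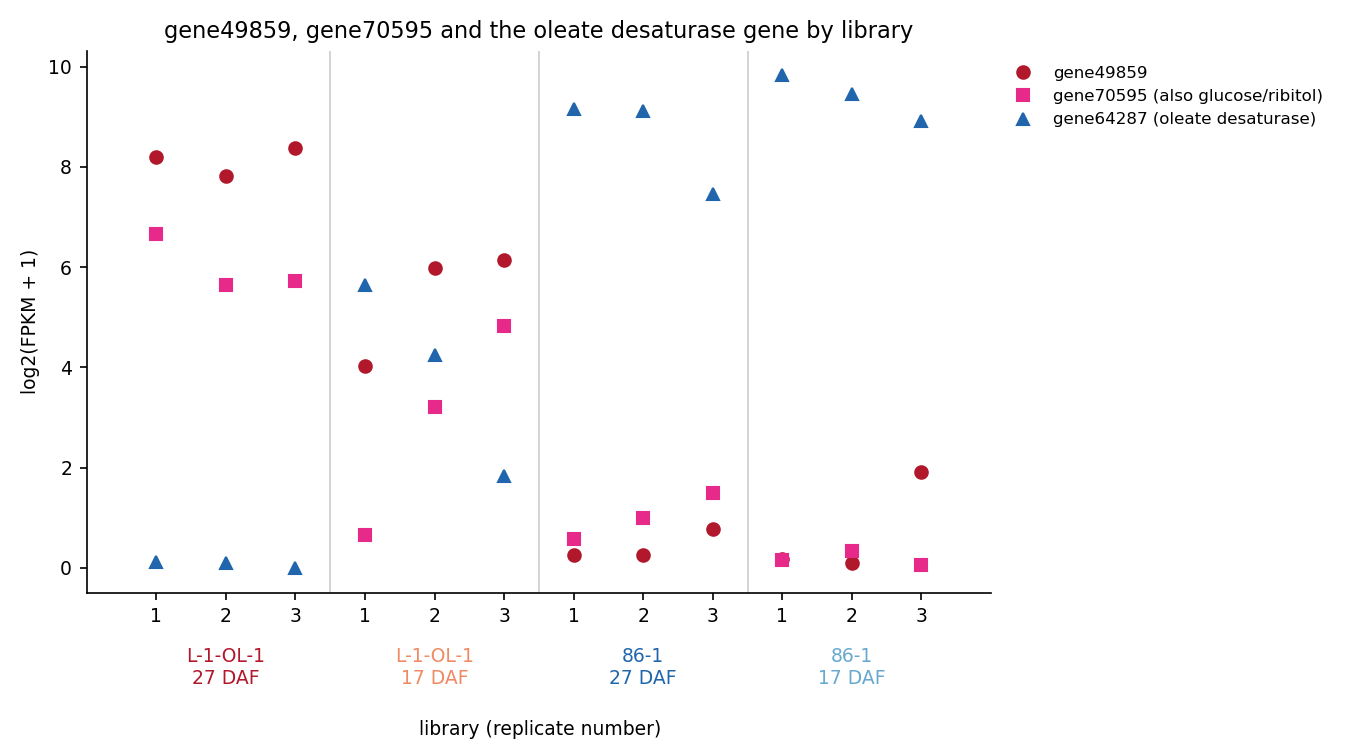
log2(FPKM + 1) of gene49859, gene70595 and the oleate desaturase gene64287 in each library. The desaturase is at most 0.0902 FPKM in L-1-OL-1 seeds of 27 DAF, where gene49859 is at 223 to 333 FPKM, and 176 FPKM or more in the 86-1 libraries.

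Among the genes of its annotation, gene70595 was the one most like gene49859 (r = 0.925); its best match is described as a short-chain dehydrogenase/reductase with the glucose/ribitol signature. It had 100, 49.0 and 52.0 FPKM in L-1-OL-1 and 0.481, 0.992 and 1.82 FPKM in 86-1 at 27 DAF. At 17 DAF it had 0.574, 8.30 and 27.2 FPKM in L-1-OL-1 and 0.112, 0.265 and 0.0435 FPKM in 86-1. Gene70595 was higher in L-1-OL-1 at 27 DAF (log2 difference 4.99 ± 0.76, limma adjusted p = 0.000194) and rose between the stages in L-1-OL-1 (3.12 ± 0.76, adjusted p = 0.00667), and both calls held in each of the 12 fits without 1 library. Its difference at 17 DAF, 2.71 ± 0.76 (adjusted p = 0.0195), lost the call without L-1-OL-1 replicate 2 or 3 (0.0685 and 0.0643) and without 86-1 replicate 2 or 3 (0.0529 and 0.0608) of that stage.

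Gene70395 and gene49859 had little in common with each other. Their correlation over the 12 libraries was 0.277. Both were low in 86-1 at 17 DAF, and replicate 3 of 86-1 at 27 DAF held gene70395 at 322 FPKM and gene49859 at 0.720 FPKM. Replicate 3 of L-1-OL-1 at 27 DAF was the reverse, with gene70395 at 1.61 FPKM and gene49859 at 333 FPKM.

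Their weight within the annotated family differed among the groups, which their choice in part fixed, and for gene70395 also among libraries of 1 group. The 81 genes together took 0.609% to 0.829% of FPKM in L-1-OL-1 at 27 DAF, 0.0755% to 0.814% in L-1-OL-1 seeds of 17 DAF, 0.341% to 1.03% in 86-1 seeds of 27 DAF and 0.0662% to 0.219% in 86-1 at 17 DAF. Gene49859 made 5.69% to 8.99% of the family's sum in L-1-OL-1 at 27 DAF, 1.35% to 3.05% in L-1-OL-1 seeds of 17 DAF and at most 0.191% in any 86-1 library. Gene70395 made 23.9% and 15.4% in L-1-OL-1 replicates 2 and 3 of 17 DAF, 4.61% in replicate 3 of 86-1 at 27 DAF and at most 2.05% in the other libraries. The 3 most abundant genes of the family, gene15654, gene50970 and gene14477, made 84.0% to 87.2% in L-1-OL-1 and 86.8% to 89.2% in 86-1 at 27 DAF. At 17 DAF they made 40.1%, 39.7% and 60.3% in L-1-OL-1 and 40.5%, 8.57% and 4.60% in 86-1, where replicates 2 and 3 were filled by other genes of the list.

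**Figure D4:**
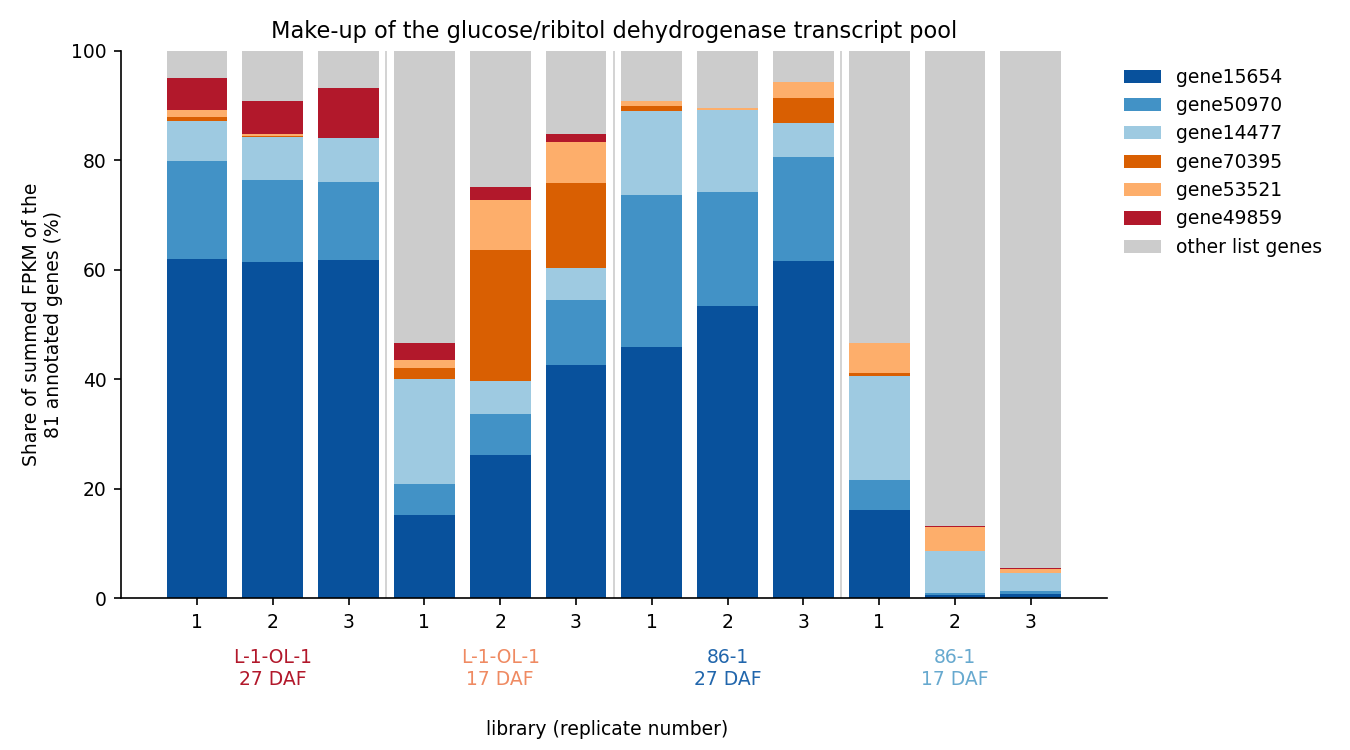
Share of the summed FPKM of the 81 annotated genes in each library, split into the 6 genes of highest mean over the 12 libraries and the rest of the list. Gene70395 is visible in L-1-OL-1 replicates 2 and 3 of 17 DAF (23.9% and 15.4%) and gene49859 in L-1-OL-1, up to 8.99%.

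Of the 81 annotated genes 48 passed the filter on low values, both chosen genes among them. The counts below are of the other 46, since the choice of gene70395 and gene49859 bears on most of these comparisons. Between the stages in 86-1, 9 of the 46 rose and 7 fell, together 34.8%; of all tested genes 4.62% rose and 14.1% fell, together 18.8%. The median log2 difference was 0.27 for the 46 and -0.20 for all tested genes. In L-1-OL-1, gene70595 was the 1 gene that rose and 12 fell, together 28.3%; of all tested genes 20.4% rose and 22.3% fell, together 42.6%, and the medians were -0.60 for the 46 and -0.00125 for all. The count of 16 in 86-1 was 8 without replicate 2 or without replicate 3 of 86-1 at 17 DAF and 9 without replicate 1 or without replicate 2 of 86-1 at 27 DAF. The count of 13 in L-1-OL-1 was 8 without replicate 2 of L-1-OL-1 at 17 DAF. It was 19 without the doubted replicate 1 of that group (1 rose and 18 fell) and 18 without its replicate 3 (7 rose and 11 fell). That only 1 gene rose thus rests on replicate 3.

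The abundant genes of the family rose in 86-1. Gene15654 had 1021, 1695 and 4289 FPKM in 86-1 at 27 DAF, against 68.6, 5.70 and 10.8 FPKM in 86-1 at 17 DAF (log2 difference 6.79 ± 1.10, limma adjusted p = 0.00171). In L-1-OL-1 it had 3177, 2281 and 2291 FPKM at 27 DAF and 75.7, 681 and 2209 FPKM at 17 DAF, a range in which replicate 3 reached the level of 27 DAF. Gene50970 had 618, 662 and 1328 FPKM at 27 DAF and 23.9, 2.06 and 7.23 FPKM at 17 DAF in 86-1 (6.58 ± 0.95, adjusted p = 0.000879). Gene14477 rose with them (2.69 ± 0.39, adjusted p = 0.000934), as did the scarce gene17013, which had 6.17, 14.7 and 12.8 FPKM at 27 DAF and 1.52, 0.114 and 0.430 FPKM at 17 DAF in 86-1 (2.87 ± 0.37, adjusted p = 0.000453). These 4 calls held in each of the 12 fits without 1 library. Proteins of late embryogenesis, which protect maturing seeds during drying, took 5.24% to 7.52% of FPKM in L-1-OL-1 at 27 DAF, 0.548% to 4.18% in L-1-OL-1 seeds of 17 DAF, 2.29% to 4.23% in 86-1 seeds of 27 DAF and 0.359% to 0.572% in 86-1 at 17 DAF.

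Other genes of the family fell. Gene74540 had 13.5, 17.6 and 11.6 FPKM in 86-1 at 27 DAF, against 69.6, 204 and 145 FPKM in 86-1 at 17 DAF (-3.09 ± 0.67, limma adjusted p = 0.00751), and it also fell in L-1-OL-1 (-2.44 ± 0.67, adjusted p = 0.0118). Gene26803 fell in 86-1 to 1.03 ± 0.270 FPKM at 27 DAF, against 8.53 ± 2.40 FPKM at 17 DAF (SD, n = 3 each; -2.21 ± 0.29, adjusted p = 0.000513). In L-1-OL-1, gene75704 had 4.48, 8.93 and 9.74 FPKM at 27 DAF, against 32.6, 58.4 and 87.3 FPKM at 17 DAF (-2.75 ± 0.55, adjusted p = 0.00215), and gene50977 had 13.9, 2.81 and 1.01 FPKM, against 13.4, 90.3 and 79.4 FPKM (-3.29 ± 0.74, adjusted p = 0.00415). These 5 calls also held without any 1 library; the groups overlapped for gene50977 in L-1-OL-1, through replicate 1 of both stages. Gene75704 shares its best match with 4 other genes and gene17013 with 1.

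Some calls between the stages were lost without single libraries. Gene12366 in L-1-OL-1 (-3.18 ± 0.94, limma adjusted p = 0.0172) lost it without replicate 3 of 27 DAF (0.0626) or replicates 2 or 3 of 17 DAF (0.0726 and 0.0583). Gene23720 in 86-1 had 1.83, 4.69 and 7.76 FPKM at 27 DAF, against 10.3, 162 and 470 FPKM at 17 DAF (-4.19 ± 1.10, adjusted p = 0.0201); the call was lost without replicates 2 or 3 of 17 DAF (0.0893 and 0.0931) or replicates 1 or 2 of 27 DAF (0.0888 and 0.0518). Gene41496 in 86-1 had 0.0917, 0.749 and 0.182 FPKM at 27 DAF, against 1.13, 26.0 and 81.7 FPKM at 17 DAF (-3.68 ± 0.97, adjusted p = 0.0207), and lost the call without replicates 2 or 3 of 17 DAF (0.0903 and 0.0836) or replicates 1 or 3 of 27 DAF (0.0764 and 0.0595).

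Between the cultivars, 3 of the 46 were higher and 14 lower in L-1-OL-1 at 27 DAF, together 37.0%; of all tested genes 27.1% were higher and 21.2% lower, together 48.3%, with medians of -0.47 for the 46 and 0.12 for all. At 17 DAF 11 were higher and 10 lower in L-1-OL-1, together 45.7%; of all tested genes 11.4% were higher and 15.6% lower, together 27.0%, with medians of 0.67 and -0.00466. Nothing is read from these shares, because this annotation was picked with the cultivar contrasts known. The count of 21 at 17 DAF was 34 without replicate 1 of L-1-OL-1, 12 without replicate 2, and 32 without both doubted libraries.

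Beside gene49859 and gene70595, the clearest cultivar differences at 27 DAF were of genes low in L-1-OL-1. Gene23719 had 0, 0.0292 and 0.121 FPKM in L-1-OL-1, against 16.6, 23.4 and 83.6 FPKM in 86-1 (-4.98 ± 1.06, limma adjusted p = 0.00211), and gene17013 had 1.02 to 2.25 FPKM, against 6.17, 14.7 and 12.8 FPKM (-2.25 ± 0.37, adjusted p = 0.000336). Both calls held without any 1 library; gene23719 shares its best match with 4 other genes. Gene50977 was lower (-2.61 ± 0.74, adjusted p = 0.0115) and lost the call without replicate 3 of L-1-OL-1 (0.0549). Gene41415 was higher, at 17.8, 28.0 and 17.3 FPKM in L-1-OL-1, against 4.95, 6.66 and 7.61 FPKM in 86-1 (1.56 ± 0.57, adjusted p = 0.0402). That call was lost in 8 of the 12 fits: without replicate 1, 2 or 3 of L-1-OL-1 at 27 DAF (0.0652, 0.126 and 0.0652), of 86-1 at 27 DAF (0.119, 0.0816 and 0.0611), or without replicate 1 or 2 of 86-1 at 17 DAF (0.0511 and 0.0535).

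At 17 DAF the 3 abundant genes were higher in L-1-OL-1. Gene15654 was at 75.7, 681 and 2209 FPKM in L-1-OL-1, against 68.6, 5.70 and 10.8 FPKM in 86-1 (4.79 ± 1.10, limma adjusted p = 0.00639), and gene50970 differed likewise (4.15 ± 0.95, adjusted p = 0.00632). Gene41415 was higher (2.63 ± 0.57, adjusted p = 0.00455), and gene26803 was lower, at 1.16, 0.0433 and 0.0184 FPKM in L-1-OL-1, against 6.84, 11.3 and 7.49 FPKM in 86-1 (-2.83 ± 0.29, adjusted p = 2.05e-05). These 4 calls held without any 1 library. Gene14477 was higher (1.39 ± 0.39, adjusted p = 0.0201) and lost the call without L-1-OL-1 replicate 2 or 3 (0.0515 and 0.0689) and without 86-1 replicate 2 or 3 (0.0643 and 0.0896) of that stage. Gene23719 was lower (-4.20 ± 1.06, adjusted p = 0.0110) and lost the call without replicate 2 of L-1-OL-1 (0.0548) or replicate 3 of 86-1 (0.0513). Gene41496 was lower in L-1-OL-1 (-2.88 ± 0.97, adjusted p = 0.0454) and lost the call in 10 of the 12 fits, all except those without replicate 1 of either cultivar at 17 DAF, with adjusted p up to 0.183 without replicate 3 of 86-1.

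**Figure D5:**
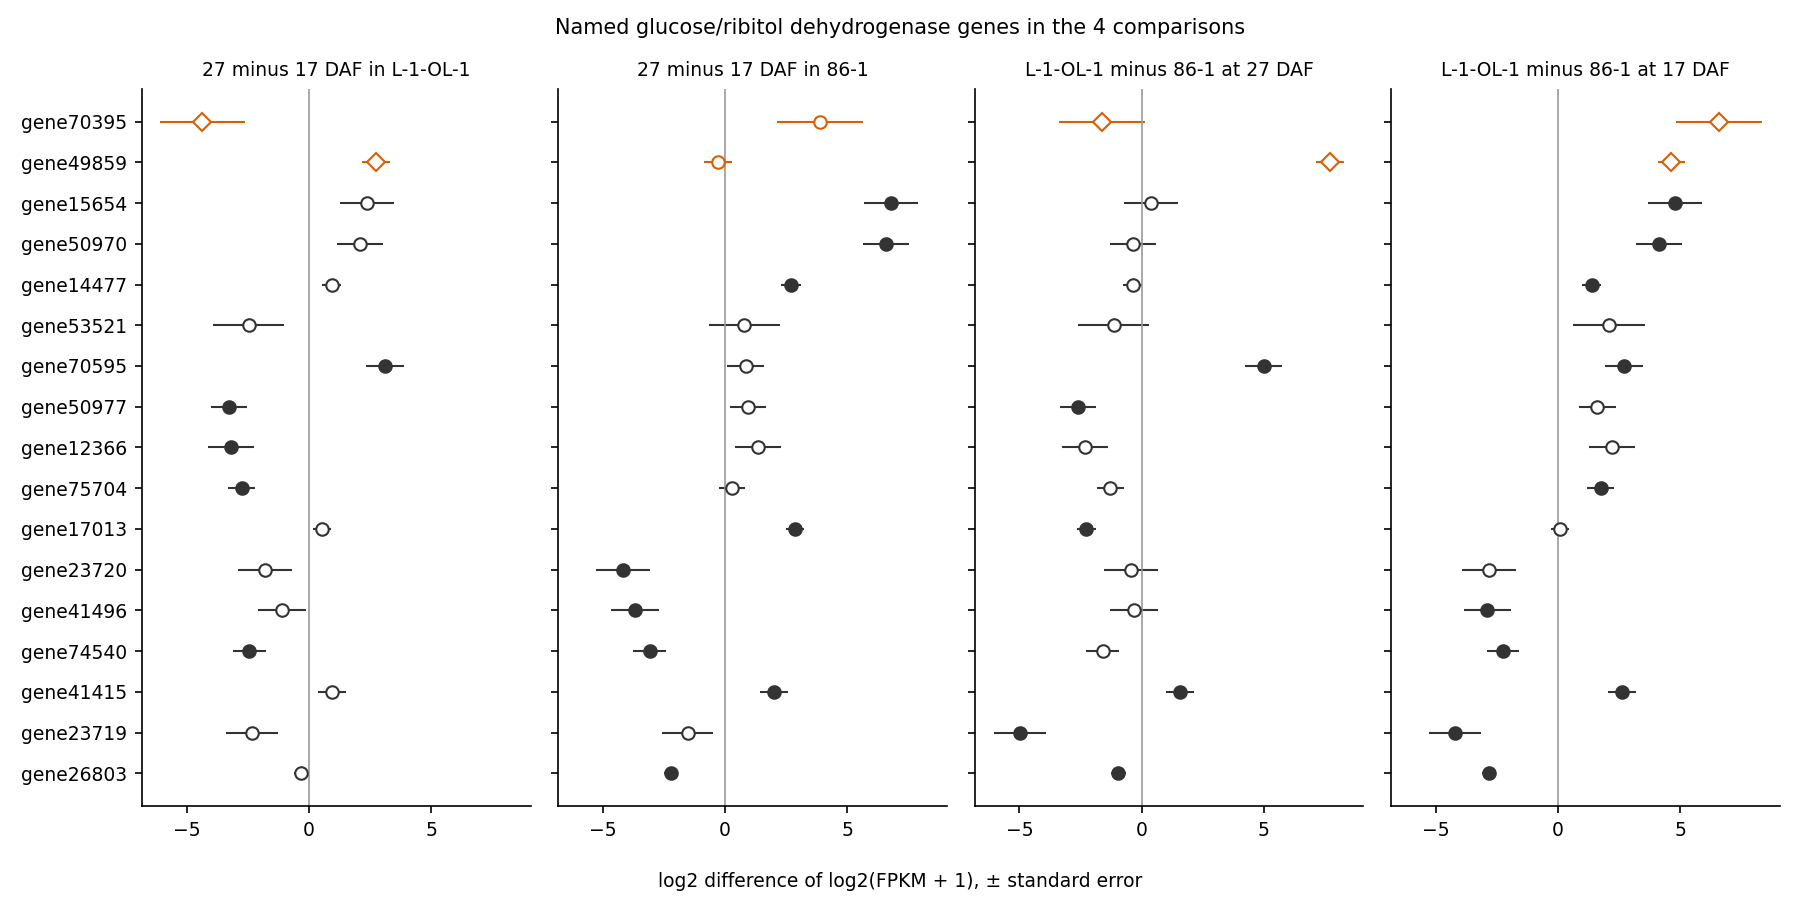
log2 difference on the log2(FPKM + 1) scale with its standard error for the 17 named genes of the annotation in the 4 comparisons. Filled circles passed limma's test and open circles did not; open diamonds mark values of gene70395 and gene49859 that are descriptions without a test.

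Genes of neighbouring metabolism were grouped by words in their annotation and compared between the stages, which the choice of the 2 genes did not rest on directly. Their counts are read against the shares of all tested genes, which were 20.4% higher and 22.3% lower in L-1-OL-1 (42.6% called) and 4.62% higher and 14.1% lower in 86-1 (18.8% called). Of just 4 other tested short-chain dehydrogenases, 4 fell in L-1-OL-1. In 86-1, limma's adjusted p called 0 of the 4, 1 of them had an unadjusted p under 0.05, and 1 was called without replicate 1 of 17 DAF. Gene11205, a short-chain dehydrogenase-reductase of type B, averaged 4.40 FPKM at 27 DAF and 43.8 FPKM at 17 DAF in L-1-OL-1 (-3.04 ± 0.50, limma adjusted p = 0.000630), and gene20121, related to the TIC32 protein of the chloroplast import machinery, 3.64 and 20.0 FPKM (-2.12 ± 0.45, adjusted p = 0.00312). Of 40 enzymes of polyols and aldoses, 4 rose and 8 fell in L-1-OL-1, a share of 30.0% that is below the 42.6% of all tested genes, and 7 rose and 5 fell in 86-1 (30.0%, against 18.8%). The 12 of 86-1 became 6 without replicate 1 or 2 of 27 DAF or replicate 2 of 17 DAF, and 5 without replicate 3 of 17 DAF. Gene27518, an inositol-3-phosphate synthase that makes the precursor of inositol, averaged 29.9 FPKM at 27 DAF and 261 FPKM at 17 DAF in L-1-OL-1 (-2.77 ± 0.48, adjusted p = 0.000845).

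Of 10 enzymes of raffinose family sugars, which accumulate in drying seeds, 1 rose and 4 fell in L-1-OL-1 (50.0%, against 42.6% of all tested genes), and 2 rose and 3 fell in 86-1 (50.0%, against 18.8%). The galactinol synthase gene40350 averaged 253 FPKM at 27 DAF and 19.5 FPKM at 17 DAF in 86-1 (3.71 ± 0.70, limma adjusted p = 0.00370). It also rose in L-1-OL-1 (limma adjusted p = 0.0261), by 1.23 to 2.91 over the fits without 1 library, and lost that call in 4 of the 12. Another galactinol synthase, gene30770, fell in L-1-OL-1 (-2.29 ± 0.41, limma adjusted p = 0.00106). Of 84 alcohol and aldehyde enzymes, 8 rose and 26 fell in L-1-OL-1, a share of 40.5% that is near the 42.6% of all tested genes, and 5 rose and 17 fell in 86-1 (26.2%, against 18.8%), where the 22 became 13 without replicate 1 of 27 DAF, 10 without replicate 2 and 9 without replicate 3 of 17 DAF. The alcohol dehydrogenase gene68447 rose in both cultivars, by 1.48 ± 0.26 in L-1-OL-1 (adjusted p = 0.000991) and by 3.06 ± 0.26 in 86-1 (adjusted p = 3.68e-05). Against this, gene63134 of the same list fell in L-1-OL-1 (limma adjusted p = 2.39e-06), as did most called genes of the list. Of 67 late embryogenesis and desiccation genes, 18 rose and 25 fell in L-1-OL-1 (64.2%, against 42.6% of all tested genes), and 25 rose and 6 fell in 86-1 (46.3%, against 18.8%); gene42840, matching a late embryogenesis protein of sunflower, rose in both (2.53 ± 0.59, adjusted p = 0.00520, in L-1-OL-1, and 2.84 ± 0.59, adjusted p = 0.00648, in 86-1). Apart from that of gene40350 in L-1-OL-1, the stage calls given for gene11205, gene20121, gene27518, gene40350, gene30770, gene68447, gene63134 and gene42840 held without any 1 library.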

How the data were processed

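RNA was extracted from seed with a plant RNA kit and sequenced on an Illumina platform, per the labels' protocols. The authors deposited 1 table of FPKM for 48882 genes and 1 table with the best protein match of each gene and its match score; the score was not used. Per the submitters' processing notes the tools include RSEM 1.2.12, HISAT2 2.0.4, DESeq2 1.4.5 and Bowtie2 2.2.5, with roles unstated; the genome build: not given in the sources used here. The match table holds 65535 lines and may be incomplete; 45957 genes had a description. 0 gene identifiers could be linked to the RefSeq gene table, so no coordinates are given.

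FPKM are not counts, so log2(FPKM + 1) was tested with limma 3.58.1 in R 4.3.3, with a mean-variance trend and 1 mean per group over the 12 libraries. Genes with at least 1 FPKM in at least 3 libraries were tested (30020). P-values are 2-sided, with Benjamini-Hochberg adjustment over the tested genes and a threshold of 0.05. The fit was tested on simulated data with independent normal noise, in which only genes of below-median spread were changed. That setting had no library that stood apart, so it does not bear on calls that rest on single libraries. Differences are L-1-OL-1 minus 86-1 and 27 minus 17 DAF. No read depth is known, so no counting interval is given.

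Both genes were chosen on their cultivar differences, so these, their stage difference in L-1-OL-1 and the interaction carry no test, and the family is counted without them. The members, lists, tests and rules were chosen with earlier results of these data known. Of the family the text names the 6 genes of highest mean and, per comparison, up to 3 called genes in each direction with at least 5 FPKM in the higher group; of every other list, examples among its 3 called genes of highest mean, picked after their values were seen for calls that held without single libraries; per chosen gene, the 6 most correlated genes with a group mean of at least 10 FPKM and a named match. Replicate numbers come from the labels; deviations from the group means of same-numbered libraries correlated at -0.226 to 0.121, so the numbers were not taken as pairs.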

Additional observations from a re-analysis of the deposited data

Results flagged for a closer look

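For 7 of the 15 named genes of the family other than the chosen 2, the stage difference (27 minus 17 DAF) itself differed between the cultivars, by limma's test of the stage difference in L-1-OL-1 minus that in 86-1, where 22.1% of all tested genes were called; gene70395 and gene49859 were not put to this test. The 15 were named in part for calls in the comparisons that make up this difference, and among all 46 tested genes of the family outside the chosen 2 it was called for 11 (23.9%), near the share of all genes. The 11 became 25 without replicate 1 of L-1-OL-1 at 17 DAF, and 6 without L-1-OL-1 replicate 3 of 27 DAF, L-1-OL-1 replicate 2 of 17 DAF or 86-1 replicate 2 of 27 DAF. They became 7 without L-1-OL-1 replicate 2 of 27 DAF, 86-1 replicate 3 of 27 DAF or 86-1 replicate 2 of 17 DAF. The value was -4.23 ± 1.04 for gene50977 (adjusted p = 0.0143), -3.03 ± 0.78 for gene75704 (adjusted p = 0.0173), -2.33 ± 0.52 for gene17013 (adjusted p = 0.00938) and 1.88 ± 0.41 for gene26803 (adjusted p = 0.00833), and these 4 calls held in each of the 12 fits without 1 library. It was -4.51 ± 1.33 for gene12366 (adjusted p = 0.0307), whose call was lost without replicate 3 of L-1-OL-1 at 27 DAF (0.0734), replicate 2 or 3 of L-1-OL-1 at 17 DAF (0.0796 and 0.0519), replicate 2 or 3 of 86-1 at 27 DAF (0.0630 and 0.0651) or replicate 1 or 2 of 86-1 at 17 DAF (0.0542 and 0.0707). The values of the abundant genes gene50970, -4.49 ± 1.35 (adjusted p = 0.0332), and gene14477, -1.75 ± 0.56 (adjusted p = 0.0414), lost their calls in 8 and 10 of the 12 fits, with adjusted p up to 0.0859 and 0.104, in both cases highest without a replicate of 86-1 at 17 DAF.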

How the results depend on the processing

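With a mean of at least 5 FPKM as the filter, fewer genes were tested and called: 7112 between the stages in L-1-OL-1, 2820 in 86-1, 7003 between the cultivars at 27 DAF and 2300 at 17 DAF, and 9, 8, 7 and 12 of the family in that order. These family counts include both chosen genes, with which the main counts were 14, 16, 18 and 23 of 48; without the 2, a choice made after seeing the data, they were 13, 16, 17 and 21 of 46. With the 6 libraries of a comparison alone, 5137 genes were called at 17 DAF, 13 of them of the family, and 6 of the family between the stages in L-1-OL-1. Median-of-ratios scaling moved the median difference of all genes by 0.22 in 86-1 and by -0.20 at 27 DAF, and quantile normalization moved it by 0.24 in 86-1 and 0.12 in L-1-OL-1; no direction of gene70395 or gene49859 turned under either. A pseudocount of 0.1 gave 9.40 and 6.39 for gene49859 between the cultivars at 27 and 17 DAF; without both doubted libraries, an alternative chosen after seeing the data, it was 5.92 at 17 DAF and 0.29 between the stages in 86-1 (adjusted p = 0.570).

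Without 1 library at a time, the counts of all genes ran from 9549 to 13561 between the stages in L-1-OL-1, 2747 to 7576 in 86-1, 11753 to 16376 at 27 DAF and 5448 to 12295 at 17 DAF, and those of the family from 9 to 21, 8 to 20, 13 to 24 and 13 to 36. Gene70395 ran from -6.35 to -3.27, 2.07 to 5.39, -3.14 to 0.17 and 5.52 to 8.60 in the same order, turning to 0.17 at 27 DAF without replicate 3 of 86-1. Gene49859 ran from 2.07 to 3.13, -0.62 to 0.29, 7.57 to 7.88 and 4.27 to 5.33, turning to 0.29 in 86-1 without replicate 3 of 17 DAF. Gene53521 ran from -4.22 to -1.40 between the stages in L-1-OL-1, from 1.03 to 3.85 between the cultivars at 17 DAF, from -0.43 to 1.68 between the stages in 86-1, and from -2.18 to 0.0669 between the cultivars at 27 DAF, turning at -0.43 and 0.0669 without replicate 3 of 86-1 at 27 DAF. Of 84 calls of named genes, 53 held in every fit without 1 library. Read depth is unknown, and values under 1 FPKM were compressed by the pseudocount.

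The replicate numbers did not pair the libraries. With the replicate block, the family counts were 17, 16, 19 and 26 in the order above, and the stage difference of gene70395 in 86-1 had an adjusted p of 0.188 and that of gene49859 0.698.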

Other observations

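The 33 annotated genes that did not pass the filter were near the bottom of the scale in all 12 libraries: the highest value of any of them was 1.88 FPKM, of gene69930 in replicate 3 of 86-1 at 27 DAF, and 0 of the 33 were at 0 in every library. Of 96 genes with the annotation, 15 had no expression values. Genes without reads may have been left out of the deposited values, so the 0 of 33 says nothing about those 15. At the other end, 18 of the 81 genes had at least 1 FPKM in every library. The best match of 63 of the 81 was identical over the whole alignment, of 115 to 495 residues over the list.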
